A study of Mus musculus with 12 samples.

Results

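Heat shock proteins and the DnaJ proteins (J-proteins) that work with them were compared in 3 untreated mouse cell lines. The set holds every gene whose mouse symbol starts with Hspa, Hspb, Hspd, Hspe, Hsph or Hsp90, or with Dnaja, Dnajb or Dnajc, each followed by a number where the name has one. The rule reads names only, although the set was proposed with earlier results of these data known. It comprised 66 genes of the 17274 genes with a symbol on the array, put into families by the start of the symbol alone: 3 of the Hsp90 family, 13 of the Hsp70 family, 1 of the Hsp110 family, 2 chaperonin genes (Hsp60 and Hsp10), 6 small heat shock proteins and 41 J-proteins (4 Dnaja, 11 Dnajb and 26 Dnajc). Hspa4 and Hspa4l, which are relatives of Hsp110, are thereby counted with the Hsp70 family. A further 6 protein-coding genes with such names (Dnajb5, Dnajb14, Dnajc13, Dnajc21, Hspb9 and Hspb11) had no matched target and are not analysed here.

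Molecular chaperones keep newly made and damaged proteins from aggregating and help them to fold. An Hsp70 binds and releases a client in a cycle driven by ATP, in which a J-protein brings the client and stimulates the ATPase while a nucleotide exchange factor, such as a member of the Hsp110 family, resets it. Hsp90 acts on more mature clients, small heat shock proteins hold unfolded ones, and the mitochondrion and the endoplasmic reticulum have Hsp70, Hsp60 or Hsp90 forms of their own. Many cytosolic members are induced by heat shock factors, and the members of the endoplasmic reticulum by the unfolded protein response.

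RNA came from 12 plates, 4 for each line, and each plate was hybridised to its own single-color array with usually 3 probes per target. The plates labelled AtT20 were of a neuroendocrine line from a mouse pituitary tumor, the plates of BV2 of a mouse microglial line kept so as to favour its resting state, and the N18 plates of a mouse neuroblastoma line. All 3 lines were immortalized, were grown in the same medium with 10% serum and antibiotics and received no treatment, so that no heat shock was given to any plate. Each tissue is stood for by 1 line, the AtT20 cells bought from a cell bank and the others obtained from laboratories, so a difference between lines does not stand for a difference between microglia, neurons and pituitary cells in general. A slide carries 4 arrays, and as the slide of each plate is not given in the sources used here, slide and line cannot be told apart.

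A level is the log2 of a gene's mean probe signal minus the mean of 10 seminal vesicle proteins on the same plate, which serve as genes that these cells should not express. A gene was called above the threshold in a line when its mean level over the 4 plates exceeded 2 SD of the seminal proteins (0.56 in BV2, 0.74 in N18 and 0.37 for the plates labelled AtT20). A difference between lines is the log2 difference after quantile normalization of the 12 arrays, and it was called at an adjusted p under 0.05 by limma over 25128 genes and unnamed targets. The same difference was also computed on unnormalized values and relative to the seminal proteins, because the median over all features moved from -0.06 to 0.18 for N18 against BV2, from 0.23 to -0.28 for AtT20 against BV2 and from -0.25 to 0.54 for N18 against AtT20 when the seminal proteins replaced the quantiles.

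Most genes of the BV2 and N18 marker lists were found in the lines so labelled, and the corticotroph list was not found in the line labelled AtT20. Of 9 microglial genes, 8 were above the threshold in BV2, 2 in N18 and 0 under the AtT20 label. Of 10 neuroblastoma genes, 9 were above it in N18, 5 in BV2 and 7 with the AtT20 label. Of these 10, 7 were called higher in N18 than in BV2 under all 3 scalings, while Nefl, Nefm and Th were called lower after quantile normalization only. The neurofilament gene Nefl had a mean level of -0.09 ± 0.08 in N18, beside 4.46 ± 0.48 under the AtT20 label. None of 8 corticotroph genes was above it on the plates labelled AtT20, with Pomc at a mean level of 0.29 ± 0.26 (SD, n = 4), Tbx19 at 0.02 ± 0.06 and Pcsk1 at 0.14 ± 0.05, and their summed level was 0.27 to 0.74 there, beside 1.11 to 1.39 in BV2 and 10.45 to 11.65 in N18. On those plates the interquartile range over all probes was 0.38 to 0.78, against 1.28 to 1.73 in BV2 and 1.91 to 2.21 in N18. They are therefore written of as labelled AtT20, the comparison of N18 with BV2 comes first, and the part of these features in the results was not tested.

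Of the 66 members, 51 (77.3%) were above the threshold in N18, 47 (71.2%) in BV2 and 34 (51.5%) for the plates labelled AtT20. Over all genes and targets the shares were 55.4%, 53.3% and 35.0% in the same order. In all 3 lines 26 members were above it, among them the 3 Hsp90 genes, Hspa4, Hspa5, Hspa8 and Hspd1. A further 18 were above it in BV2 and N18 but not on the plates labelled AtT20, including Hsph1, Hspe1, Hspa9 and Dnajc5. The genes above it in N18 alone were Hspb8, Hspa12a, Dnaja1, Dnajc22 and Dnajc28, those on the plates labelled AtT20 alone were Hspa1b, Hspb7, Dnajc11, Dnajc12 and Dnajc14, and those in BV2 alone were Dnajb3 and Dnajc25. In no line did the mean of Hspa1a, Hspa13, Dnaja4, Dnajb8, Dnajc5b, Dnajc5g or Dnajc18 pass, although each of these other than Dnaja4 had a single probe above the threshold in at least one line. Passing in one line and not in another was not itself a test of the difference between them.

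**Figure D1:**
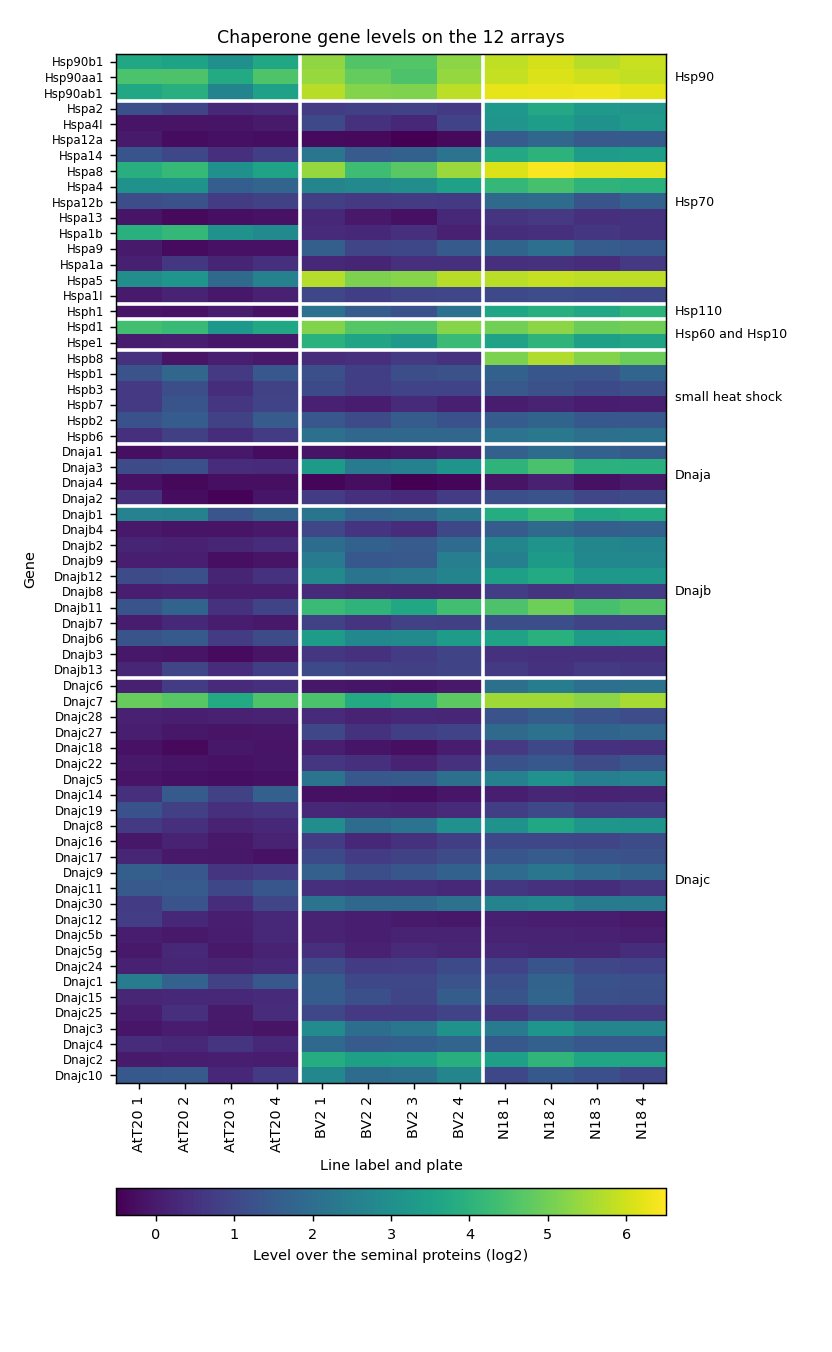
Level over the seminal proteins (log2, color scale) of the 66 members (one line of cells each, grouped by family) on the 12 plates (columns). The 3 Hsp90 genes, Hspa5, Hspa8, Hspd1 and Dnajc7 are bright on the BV2 and N18 plates, and Hspb8 is bright on the 4 N18 plates only.

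Support from single probes differed between the lines. Among members above the threshold, fewer than 2 probes were above it by themselves for 4 of 51 in N18, 7 of 47 in BV2 and 15 of 34 under the AtT20 label. For targets of members above the threshold in the line, the median range between the 3 probes was 1.38 in BV2 (50 targets), 1.59 in N18 (55) and 1.88 under the AtT20 label (37). Over the targets of all genes above it, the median range was 1.39, 1.47 and 1.57 in the same order. Across the 210 probes of the members, mean levels correlated with r = 0.88 between N18 and BV2, 0.58 between AtT20 and BV2 and 0.52 between AtT20 and N18, as a description over probes that share targets and arrays. The probes of abundant members were among those that spread on the plates labelled AtT20. The 3 probes of Hspa5 had mean levels of 5.33, 5.88 and 5.02 in BV2 and 6.02, 6.25 and 4.75 in N18, but 3.88, 1.71 and -0.17 on the plates labelled AtT20. Those of Hsp90aa1 were at 4.81, 5.02 and -0.08 there. For Hsp90ab1, the probes on the plates labelled AtT20 had mean levels of 0.29, 2.12 and 4.74.

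**Figure D2:**
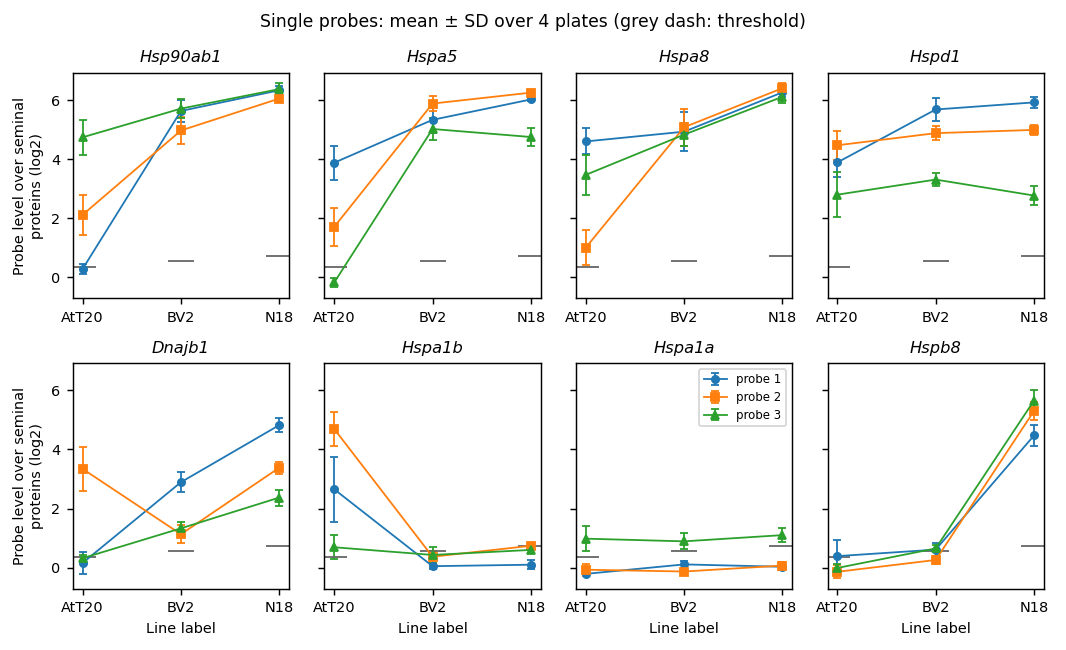
Mean level over the seminal proteins (log2, vertical axis; bars: SD over 4 plates) of each of the 3 probes of 8 members in the 3 lines (horizontal axis), with the threshold as a grey dash. The probes of Hsp90ab1 and Hspa8 lie close together in BV2 and N18 and spread widely on the plates labelled AtT20, and the 3 probes of Hspb8 lie between 4.47 and 5.65 in N18.

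Promoter sequence is shown for Hsph1, Hspe1, Hspa5, Hsp90b1 and Dnajc3, whose promoters held a regulatory motif named after these pathways. Promoters (250 bases before to 50 after the gene's start, RefSeq, GRCm38.p6) were found for 52 members and searched on both strands. The heat shock element was spelled GAANNTTCNNGAA, or TTCNNGAANNTTC on the opposite strand, and was found in the promoters of Hspd1, Hspe1, Hsph1 and Dnajb6, which is 7.69% of the members, against 0.662% of the promoters of 27025 genes. The endoplasmic reticulum stress element was spelled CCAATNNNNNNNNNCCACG, or CGTGGNNNNNNNNNATTGG, and was found for Hspa5, Hsp90b1 and Dnajc3, 5.77% of the members, against 0.137% of all genes. A match describes these letters and does not show that a factor bound there, and no binding was measured. Hspd1 and Hspe1 lie head to head, and their windows share 285 of 300 bases. Their matches are the same bases read from either strand, so the share of members counts that stretch for both genes. In the sequences, printed 5′ to 3′ on the strand of the gene, capitals mark the fixed letters of the motif. The Hsph1 stretch (chr5:149636279-149636308, minus strand) holds its motif 16 bases past the second of its listed starts. The other sequences are the 250 bases before the start, at chr1:55087898-55088147 (plus strand) for Hspe1, chr2:34771840-34772089 (plus strand) for Hspa5, chr10:86705445-86705694 (minus strand) for Hsp90b1 and chr14:118937682-118937931 (plus strand) for Dnajc3. Hspe1 has a pair of overlapping matches, and Hsp90b1 a match on each strand.
Hsph1: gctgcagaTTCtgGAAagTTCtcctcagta
Hspe1: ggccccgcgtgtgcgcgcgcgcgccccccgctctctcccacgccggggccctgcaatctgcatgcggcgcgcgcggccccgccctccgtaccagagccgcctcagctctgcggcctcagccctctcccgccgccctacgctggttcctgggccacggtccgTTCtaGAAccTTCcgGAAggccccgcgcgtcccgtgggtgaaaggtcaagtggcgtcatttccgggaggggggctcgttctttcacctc
Hspa5: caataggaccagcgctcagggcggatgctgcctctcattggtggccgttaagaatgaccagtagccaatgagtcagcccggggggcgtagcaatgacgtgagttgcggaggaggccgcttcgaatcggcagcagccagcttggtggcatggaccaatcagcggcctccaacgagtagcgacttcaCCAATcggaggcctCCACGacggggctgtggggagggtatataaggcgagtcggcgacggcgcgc
Hsp90b1: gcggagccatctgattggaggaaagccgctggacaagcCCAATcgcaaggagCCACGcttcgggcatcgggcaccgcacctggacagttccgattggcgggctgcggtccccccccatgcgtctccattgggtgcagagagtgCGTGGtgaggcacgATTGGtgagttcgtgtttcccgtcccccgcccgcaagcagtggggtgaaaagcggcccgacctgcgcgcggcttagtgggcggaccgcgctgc
Dnajc3: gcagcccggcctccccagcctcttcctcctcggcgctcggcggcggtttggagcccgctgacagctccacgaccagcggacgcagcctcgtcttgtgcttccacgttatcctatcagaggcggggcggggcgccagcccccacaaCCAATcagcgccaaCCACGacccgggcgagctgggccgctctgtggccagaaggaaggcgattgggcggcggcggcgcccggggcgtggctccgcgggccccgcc

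Between N18 and BV2 cells, 24 of the 66 members were higher in N18, 9 were lower and 33 were not called after quantile normalization. The 24 are 36.4% of the members, against 19.0% of all features, and the 9 are 13.6%, against 21.9%. These shares are of the fit of all 12 arrays. With only the 8 arrays of the pair more members were lower, as counted in the last section, and the share of all features in that fit is not given. Whether the share of lower members is also smaller than that of all features in that fit was therefore not tested. Under all 3 scalings 23 were higher (34.8% of the members, against 18.7%) and only Dnajc10 was lower (1.52%, against 7.16%). The counts of higher and lower members were 36 and 1 relative to the seminal proteins, where 38.8% and 13.1% of all features were called, and 30 and 1 on unnormalized values, where 30.7% and 7.58% were. The median difference of the members was 0.11, beside -0.06 over all features, and relative to the seminal proteins it was 0.47, beside 0.18. Of the 33 members called, every probe had the sign of the call for 31, the exceptions being Dnajb13 and Hspa12b. RNA was measured in bulk, so fewer cells carrying a message and less message per cell cannot be told apart.

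**Figure D3:**
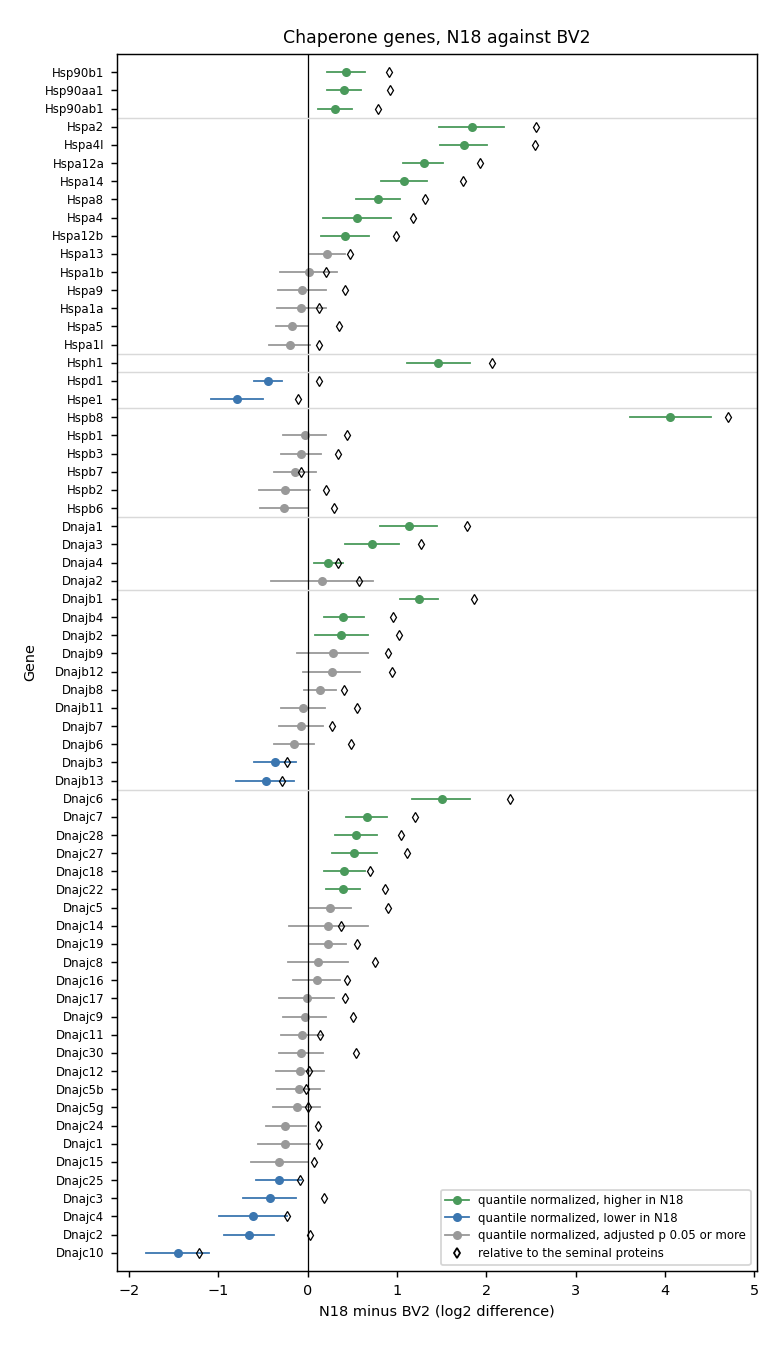
Log2 difference N18 minus BV2 (horizontal axis) for the 66 members by family (vertical axis). Circles are quantile normalized differences with 95% confidence intervals from limma (green: called higher, blue: called lower, grey: not called), and open diamonds are the differences relative to the seminal proteins. Hspb8 lies far to the right at 4.06, and among the genes called lower only Dnajc10, at -1.45, also has its diamond far to the left.

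Among the small heat shock proteins, Hspb8 was the member with the largest difference. Hspb8 (Hsp22) works with the co-chaperone Bag3 in handing misfolded proteins to autophagy. Its level was 5.11, 5.66, 5.20 and 4.92 on plates 1 to 4 of N18, 0.40, 0.48, 0.70 and 0.51 in BV2, and 0.51, -0.12, 0.10 and -0.02 on the plates labelled AtT20. All 4 N18 plates were far above every plate of the other lines, and the mean was below the threshold in both of those. Of its single probes, those at 0.61 and 0.65 in BV2 and the one at 0.39 under the AtT20 label were just above the threshold. After quantile normalization it was higher in N18 than in BV2 by 4.06 (95% interval 3.61 to 4.51, limma adjusted p = 1.45e-10). With BV2 set at its threshold the means differed 16.1-fold, a value that leaves out the spread between plates. The 3 probes had mean N18 levels of 4.47, 5.30 and 5.65.

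The other 5 small heat shock proteins were not called between N18 and BV2. Hspb1 (Hsp27), which is induced by heat and guards actin, had levels of 1.67, 1.38, 1.35 and 1.79 in N18 and 1.20, 0.80, 1.19 and 1.23 in BV2. These did not overlap as levels, yet after quantile normalization the difference was -0.03 (-0.28 to 0.21, adjusted p = 0.841). Hspb2, Hspb3, Hspb6 and Hspb7, known from muscle, differed by -0.26, -0.08, -0.27 and -0.14, with adjusted p between 0.102 and 0.596. Hspb6 (Hsp20) had mean levels of 2.17 ± 0.09 in N18 and 1.88 ± 0.14 in BV2, and Hspb7 was below the threshold in both lines. With only the 8 arrays of the pair in the fit, Hspb2 (-0.33) and Hspb6 (-0.31) passed as lower in N18.

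Of the 13 genes grouped as Hsp70 by symbol, Hspa4 and Hspa4l among them, 7 were higher in N18 than in BV2 (53.8%, against 19.0% of all features) and none was lower (against 21.9%). Hspa2, best known for its role in the meiosis of male germ cells, had levels of 3.24, 3.73, 3.28 and 3.14 in N18 and of 0.74, 0.83, 0.89 and 0.68 in BV2. The groups did not overlap, and its difference was 1.84 (1.47 to 2.20, adjusted p = 2.26e-07). In BV2, Hspa2 rested on 1 probe above the threshold, while its 3 probes had levels of 2.54, 4.44 and 1.52 in N18. Hspa4l, a relative of Hsp110 that exchanges nucleotide on Hsp70, had levels of 3.14, 3.39, 3.10 and 3.28 in N18 and of 1.04, 0.50, 0.27 and 0.90 in BV2. Every N18 plate was above every BV2 plate. The difference was 1.75 (1.48 to 2.01, adjusted p = 6.71e-09).

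Hspa8 (Hsc70), the constitutive Hsp70 of the cytosol, had levels of 6.12, 6.42, 6.24 and 6.27 in N18 and of 5.38, 4.32, 4.70 and 5.44 in BV2. All N18 plates were higher, and the N18 values lay close to the levels of 6.27 to 6.59 at which the scanner reached its upper limit on those arrays. The difference was 0.79 (0.54 to 1.03, adjusted p = 3.69e-05). One probe of Hspa8 was at that limit on 1 N18 array.

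Hspa14, which with the J-protein Dnajc2 sits on the ribosome, had levels of 3.72, 4.03, 3.38 and 3.42 in N18 and of 2.25, 1.51, 1.67 and 2.17 in BV2. It was higher on every N18 plate. Its difference was 1.08 (0.82 to 1.34, adjusted p = 2.01e-06). Hspa12a, a distant relative of the family, was on average at 1.57 ± 0.16 in N18 and at -0.36 ± 0.09 in BV2, below the threshold there, and was at least 1.3-fold higher in N18 (difference 1.30, adjusted p = 3.81e-08). Hspa4, another exchange factor, was higher by 0.55 (0.17 to 0.93, adjusted p = 0.021), a call lost without BV2 plate 1 (0.34), without N18 plate 3 (0.53) and with the median of the probes (0.36). In BV2, probe 2 of Hspa4 spread widely between the plates (2.29 ± 2.2), while the SD of the other probes was 0.41 and 0.29. Hspa12b was higher by 0.42 (adjusted p = 0.0137), and this call was lost without N18 plate 1 (0.36).

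The organelle forms of Hsp70 and the strictly heat-inducible genes were not called. Hspa5 (BiP), the Hsp70 of the endoplasmic reticulum, had levels of 5.77, 5.88, 5.80 and 5.79 in N18 and of 5.72, 5.12, 5.24 and 5.75 in BV2, and differed by -0.18 (-0.36 to 0.00, adjusted p = 0.104). Its call as lower in N18 passed with the mean of log2 probes (-0.32). Hspa9 (mortalin), the mitochondrial Hsp70, had mean levels of 1.69 ± 0.28 and 1.27 ± 0.32 and differed by -0.06 (-0.33 to 0.21, adjusted p = 0.739). Relative to the seminal proteins Hspa9 passed as higher in N18 (0.42, adjusted p = 0.0338), and on unnormalized values it did not (0.39, adjusted p = 0.121). Hspa13, a microsomal relative, differed by 0.22 (adjusted p = 0.0669), which passed relative to the seminal proteins (0.47) and on unnormalized values (0.44), and Hspa1l by -0.20 (adjusted p = 0.168).

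Hspa1a and Hspa1b encode the heat-inducible Hsp70 and are near-identical copies, so their probes may share signal and the values of each are uncertain. The mean of each was below the threshold in N18 and in BV2. A single probe of Hspa1a was above it, at 0.89 in BV2 and 1.10 in N18, and a single probe of Hspa1b, at 0.74, was just above it in N18. Hspa1b had levels of 0.42, 0.48, 0.61 and 0.53 in N18 and of 0.35, 0.30, 0.43 and 0.13 in BV2. Those ranges overlapped, and its difference was 0.01 (-0.31 to 0.33, adjusted p = 0.975). Hspa1a differed by -0.07 (-0.34 to 0.21, adjusted p = 0.72).

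Hsph1 (Hsp105), the only member grouped as Hsp110 by symbol, is a heat-inducible exchange factor of Hsp70, and the 30 bases shown from its promoter hold a heat shock element. Its level was 3.64, 3.91, 3.66 and 4.02 in N18, 2.10, 1.53, 1.26 and 2.10 in BV2, and -0.11, -0.15, 0.05 and -0.17 on the plates labelled AtT20. The 3 lines did not overlap. Hsph1 was higher in N18 than in BV2 by 1.46 (1.11 to 1.82, adjusted p = 2.23e-06).

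The 3 Hsp90 genes were all higher in N18 than in BV2, by smaller amounts. Hsp90aa1, the inducible cytosolic form, had levels of 5.89, 6.13, 5.98 and 5.85 in N18 and of 5.41, 4.84, 4.54 and 5.38 in BV2, and differed by 0.41 (0.22 to 0.60, adjusted p = 0.00129). Hsp90ab1, the constitutive cytosolic form, had levels of 6.24, 6.30, 6.32 and 6.20 in N18 and of 5.76, 5.20, 5.14 and 5.80 in BV2, and differed by 0.30 (0.11 to 0.49, adjusted p = 0.0129). Neither gene overlapped between the lines. A pair of Hsp90ab1 probes was at the scanner limit on N18 arrays (1 on 2 arrays and the other on 1), and with the median of the probes its call was lost (0.17). Hsp90b1 (Grp94), the form of the endoplasmic reticulum, had mean levels of 5.88 ± 0.13 in N18 and 4.97 ± 0.40 in BV2 and differed by 0.43 (0.22 to 0.64, adjusted p = 0.00232).

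Hspd1 (Hsp60) and Hspe1 (Hsp10) form the folding chamber of the mitochondrion, and their shared promoter region is the Hspe1 sequence shown above. Hspd1 had levels of 5.01, 5.28, 4.93 and 4.98 in N18 and of 5.18, 4.65, 4.64 and 5.22 in BV2. Hspe1, which has near-identical copies in the genome and is uncertain for that reason, had levels of 3.53, 4.04, 3.47 and 3.60 in N18 and of 3.97, 3.60, 3.25 and 4.26 in BV2. As levels, both genes overlapped between the lines. After quantile normalization Hspd1 was lower in N18 by 0.45 on the log2 scale (difference -0.45, -0.60 to -0.29, adjusted p = 0.000126) and Hspe1 by 0.79 (difference -0.79, -1.08 to -0.50, adjusted p = 0.000179). Relative to the seminal proteins the differences were 0.13 (adjusted p = 0.702) and -0.11 (adjusted p = 0.73), so neither call held under that scaling.

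**Figure D4:**
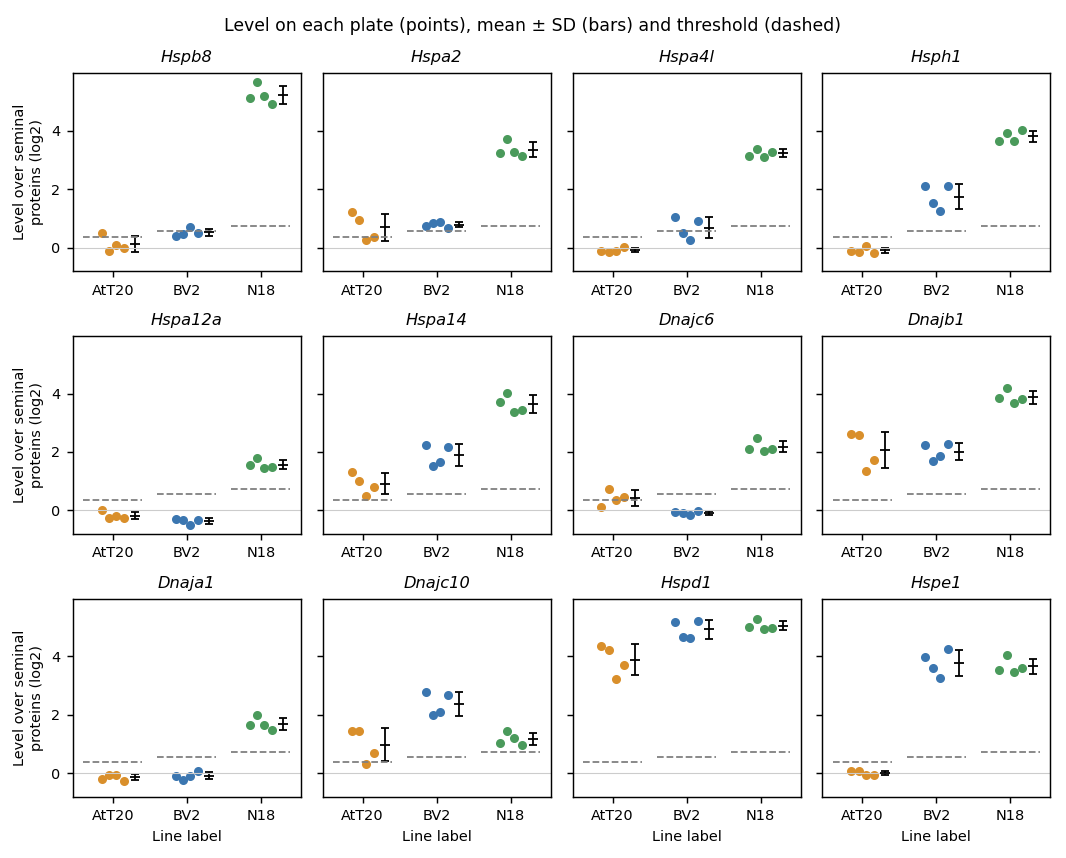
Level over the seminal proteins (log2, vertical axis) of 12 members on each plate (points) of the 3 lines (horizontal axis), with the mean ± SD of 4 plates (black bars) and the threshold of the line (dashed). N18 plates stand above BV2 plates for the 9 genes from Hspb8 to Dnaja1, below them for Dnajc10, and among them for Hspd1 and Hspe1.

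Of the 41 J-proteins, 12 were higher in N18 than in BV2 (29.3%, against 19.0% of all features) and 7 were lower (17.1%, against 21.9%). Under all 3 scalings 11 were higher (26.8%, against 18.7%) and 1 was lower (2.44%, against 7.16%). Dnajc6 (auxilin) recruits Hspa8 to strip clathrin from vesicles and is known from neurons. Its level was 2.09, 2.47, 2.05 and 2.11 in N18, -0.05, -0.09, -0.16 and -0.02 in BV2, and 0.12, 0.75, 0.36 and 0.47 on the plates labelled AtT20. The N18 plates were above all others. Dnajc6 was at least 1.9-fold higher in N18 than in BV2, where it was below the threshold (difference 1.50, 1.17 to 1.82, adjusted p = 6.5e-07). Its relatives on vesicles were not called after quantile normalization: Dnajc5 (cysteine string protein) had mean levels of 2.69 ± 0.23 in N18 and 1.78 ± 0.41 in BV2 and a difference of 0.25 (adjusted p = 0.0762), and Dnajc5b and Dnajc5g were below the threshold in both lines. Dnajc5 did pass as higher in N18 under the other scalings, by 0.90 with that of the seminal proteins (adjusted p = 0.000525) and by 0.87 on unnormalized values (adjusted p = 0.000272), and its levels did not overlap.

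Dnajb1 (Hsp40) is the main heat-inducible partner of Hsp70 in the cytosol. Its level was 3.84, 4.19, 3.66 and 3.80 in N18 and 2.23, 1.69, 1.85 and 2.29 in BV2. N18 was higher on every plate. The difference was 1.25 (1.03 to 1.46, adjusted p = 3.43e-08). Dnaja1, another cytosolic partner, had levels of 1.65, 1.98, 1.64 and 1.48 in N18 and of -0.11, -0.22, -0.11 and 0.07 in BV2. The BV2 plates were all below the threshold, and N18 was at least 1.4-fold higher (difference 1.13, adjusted p = 1.38e-05).

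The next J-proteins with the largest higher calls in N18 differed by less than 1. Dnaja3 (Tid1), a mitochondrial J-protein, was higher by 0.72 (0.42 to 1.02, adjusted p = 0.000642), with mean levels of 4.12 ± 0.26 and 2.85 ± 0.44. Dnajc7, whose repeats bind both Hsp70 and Hsp90, was higher by 0.66 (0.43 to 0.89, adjusted p = 0.000106), with mean levels of 5.46 ± 0.13 and 4.26 ± 0.44. Dnajc28 (0.54), Dnajc27 (0.52), Dnajc18 (0.41), Dnajb4 (0.40) and Dnajc22 (0.39) were also higher, with adjusted p between 0.000957 and 0.00637. Dnajc18 was below the threshold in both lines. With the median of the probes, Dnaja3 (0.42), Dnajc28 (0.34) and Dnajc22 (0.20) lost their calls. The last of the 12 were Dnajb2 (0.37, adjusted p = 0.0426), with mean levels of 2.80 ± 0.21 and 1.78 ± 0.23, and Dnaja4 (0.23, adjusted p = 0.0245), which was below the threshold in both lines and was the only higher call of the 24 that did not hold under all 3 scalings.

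Dnajc10 (ERdj5), a J-protein of the endoplasmic reticulum that reduces disulfide bonds of misfolded proteins, went the other way. Its level was 1.02, 1.43, 1.22 and 0.97 in N18, 2.77, 1.98, 2.08 and 2.69 in BV2, and 1.43, 1.46, 0.32 and 0.70 on the plates labelled AtT20. Every BV2 plate was above every N18 plate. The difference between N18 and BV2 was -1.45 (-1.81 to -1.10, adjusted p = 2.82e-06), and relative to the seminal proteins it was -1.22. The 3 probes differed by -1.61 to -1.06.

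The other J-proteins called lower in N18 held that call only after quantile normalization and neither on unnormalized values nor relative to the seminal proteins. Dnajc2, the ribosome-bound partner of Hspa14, differed by -0.66 (-0.94 to -0.38, adjusted p = 0.000769), while its levels were 3.45, 4.09, 3.64 and 3.63 in N18 and 3.84, 3.47, 3.50 and 3.91 in BV2, which overlapped. Dnajc3 (p58IPK), a J-protein of the endoplasmic reticulum, differed by -0.42 (adjusted p = 0.0224) and relative to the seminal proteins by 0.18. Dnajc4 (-0.61), Dnajb13 (-0.47), Dnajb3 (-0.37) and Dnajc25 (-0.32) were called as well, with adjusted p between 0.0117 and 0.0417. Dnajb13 and Dnajb3 are known from testis. Dnajc3 lost its call without BV2 plate 4 (-0.32) and without N18 plate 1 (-0.33), Dnajb13 without BV2 plate 2 (-0.43), N18 plate 1 (-0.45) and N18 plate 2 (-0.41), and Dnajc25 (-0.34 to -0.27) without any single plate other than N18 plate 2.

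A further 22 J-proteins were not called between N18 and BV2 after quantile normalization, and their differences lay between -0.32 and 0.28. Relative to the seminal proteins 10 of the 22 passed as higher in N18 and none as lower, where 38.8% and 13.1% of all features did. Of these 10, Dnaja2, Dnajb9, Dnajb12, Dnajc5, Dnajc8 and Dnajc19 passed on unnormalized values as well. Dnajb11 (ERdj3) and Dnajb9 (ERdj4), co-chaperones of Hspa5 in the endoplasmic reticulum, had mean levels of 4.65 ± 0.22 and 2.85 ± 0.34 in N18 and of 4.10 ± 0.30 and 1.95 ± 0.58 in BV2, with differences of -0.05 (-0.30 to 0.19) and 0.28 (-0.12 to 0.68). Dnajb9 was higher by 0.90 relative to the seminal proteins (adjusted p = 0.00416). Dnajb6, which holds back the aggregation of polyglutamine proteins, differed by -0.15 (-0.38 to 0.07), and the membrane-bound Dnajb12 by 0.27 (-0.05 to 0.59), with 0.94 relative to the seminal proteins (adjusted p = 0.00411). Dnajc8, a J-protein of the spliceosome, differed by 0.11 (-0.22 to 0.45), or 0.75 when scaled to the seminal proteins (adjusted p = 0.0173), and Dnajc9, a chaperone of histones, by -0.03 (-0.28 to 0.21). Dnajc15 (-0.32, -0.64 to 0.00) and Dnajc19 (0.23, 0.02 to 0.43), both of the mitochondrial import motor, were also not called, with adjusted p of 0.103 and 0.0706, and relative to the seminal proteins Dnajc19 was higher by 0.55 (adjusted p = 0.00264). The other 14 were Dnaja2, Dnajb7, Dnajb8, Dnajc1, Dnajc5, Dnajc5b, Dnajc5g, Dnajc11, Dnajc12, Dnajc14, Dnajc16, Dnajc17, Dnajc24 and Dnajc30.

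The members were also counted by where the proteins act, beside the 19.0% of all features that were higher and the 21.9% that were lower. These lists, and those of the partners below, were chosen with earlier results of these data known. Their counts therefore describe the data and are no independent evidence of a pattern. Of 11 members on a list of heat-inducible cytosolic genes, which also holds the constitutive Hspa8, 8 (72.7%) were higher in N18 than in BV2 under all 3 scalings (Hspa8, Hsph1, Hspa4l, Hsp90aa1, Hspb8, Dnajb1, Dnaja1 and Dnajb4), none was lower, and Hspa1a, Hspa1b and Hspb1 were not called. The median difference of the 11 was 0.79. Without Hspa8, a setting chosen after seeing the data, 7 of 10 were higher, with a median of 0.77. Of 9 members of the endoplasmic reticulum, 1 was higher (11.1%, Hsp90b1) and 3 were lower (33.3%, Dnajc10, Dnajc3 and Dnajc25), with a median of -0.18 that was 0.35 relative to the seminal proteins. Of 10 mitochondrial members, 2 were higher (Dnaja3 and Dnajc28) and 3 were lower (Hspd1, Hspe1 and Dnajc4), with a median of -0.07 that was 0.28 relative to the seminal proteins. Of 6 members known from testis, 1 was higher (Hspa2) and 2 were lower, and of 4 members of the ribosome and nucleus, 1 was lower (Dnajc2). Under all 3 scalings, Dnajc10 was the only member of these lists that was lower.

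Partners of the chaperones that are not themselves members were counted from lists of heat shock factors, co-chaperones and the cytosolic chaperonin TRiC. Of 41 partners, 18 were higher in N18 than in BV2 (43.9%, against 19.0% of all features) and 5 were lower (12.2%, against 21.9%), and under all 3 scalings 18 were higher (against 18.7%) and 0 were lower (against 7.16%). By list, 3 of 4 genes on that of the heat shock factors (Hsf1, Hsf2, Hsf4 and the binding protein Hsbp1), 4 of 13 co-chaperones of Hsp70, 7 of 15 co-chaperones of Hsp90 and 4 of 9 TRiC subunits were higher. Bag3, the partner of Hspb8, was at 2.47, 2.93, 2.38 and 2.45 in N18 and at 1.12, 0.43, 0.37 and 0.89 in BV2. Every N18 plate was above every BV2 plate, and the difference was 1.17 (0.90 to 1.43, adjusted p = 1.09e-06). Hsbp1, which binds heat shock factor 1, was higher by 1.24 (0.99 to 1.49, adjusted p = 2.26e-07).

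Fkbp4, an immunophilin that joins Hsp90 on steroid receptors, was higher in N18 by 1.09 (0.89 to 1.29, adjusted p = 7.7e-08). Sec63, which carries a J domain at the translocon of the endoplasmic reticulum, was higher by 1.05 (adjusted p = 7.36e-07), and the TRiC subunit Cct8 by 1.04 (adjusted p = 1.14e-06). The 5 lower partners were Hscb (-0.52), a mitochondrial J-protein for iron-sulfur clusters, Cdc37 (-0.49), which brings kinases to Hsp90, the exchange factors Bag1 (-0.42) and Bag5 (-0.39), and Chordc1 (-0.32), which binds Hsp90. Relative to the seminal proteins none of the 5 passed, and Bag1, Bag5 and Chordc1 were then at 0.18, 0.14 and 0.33. On a list of 12 other genes of the unfolded protein response, 2 were higher (16.7%, against 19.0% of all features) and 3 were lower (25.0%, against 21.9%). Under all 3 scalings 2 were higher (16.7%, against 18.7%) and 0 were lower (against 7.16%).

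On the plates labelled AtT20, the member furthest above both other lines was Hspa1b. It had levels of 3.94, 4.16, 3.08 and 2.85 on these plates, above each of the 8 other plates. It was at least 7.7-fold higher than in BV2 (difference 4.09, 3.77 to 4.40, adjusted p = 1.04e-12) and at least 6.8-fold higher than in N18 (difference N18 minus AtT20 -4.08, adjusted p = 1.12e-12). Its 3 probes had mean levels of 2.65, 4.69 and 0.69 there. The copy Hspa1a was at 0.11, 0.64, 0.23 and 0.45, with a mean of 0.36, just under the threshold of 0.37, and its probes were at -0.21, -0.07 and 0.98. The other genes of the heat-inducible cytosolic list above the threshold on these plates were Hspa8, Hsp90aa1, Hspb1 and Dnajb1, while Hsph1, Hspa4l, Dnaja1, Dnajb4 and Hspb8 were below it.

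Between the plates labelled AtT20 and the BV2 plates, 23 members were higher in AtT20 and 25 were lower after quantile normalization (34.8% against 47.0% of all features, and 37.9% against 26.6%). Relative to the seminal proteins the counts were 7 and 40 (17.6% and 50.4% of all features), and on unnormalized values 42 and 12 (74.7% and 11.7% of all features). Both after quantile normalization and relative to the seminal proteins, 7 members were higher (10.6%, against 17.2% of all features) and 25 were lower (37.9%, against 26.6%). After Hspa1b, the highest were Dnajc14 (2.20, at least 1.4-fold, adjusted p = 8.23e-08) and Dnajc11 (1.96, at least 1.7-fold, adjusted p = 1.46e-10), a mitochondrial J-protein. Both rested mainly on 1 probe, with probe levels of 2.15, -0.24 and -0.05 for Dnajc14 and of 0.04, 2.39 and 0.37 for Dnajc11.

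The members furthest below BV2 on the plates labelled AtT20 after quantile normalization were Hspe1, Dnajc2 and Dnajc3. Relative to the seminal proteins, Dnajb11 (-2.99) and Hspa5 (-2.8) were further below BV2 than Dnajc3 (-2.6). The same held on unnormalized values (-1.63 and -1.44, beside -1.23). Hspe1 had levels of 0.07, 0.09, -0.06 and -0.05 on these plates, with all of its 3 probes below the threshold, while the 4 BV2 plates lay between 3.25 and 4.26. BV2 was at least 5.0-fold higher (difference -3.23, -3.51 to -2.94, adjusted p = 4.59e-12). Dnajc2 had levels of 0.01, 0.07, 0.08 and 0.02, and BV2 was at least 4.8-fold higher (difference -3.00, adjusted p = 9.17e-12). Dnajc3 had levels of -0.07, 0.06, -0.02 and -0.14, and BV2 was at least 2.1-fold higher (difference -2.05, adjusted p = 1.4e-09). Hspd1, the partner of Hspe1, was above the threshold on the same plates with levels of 4.37, 4.23, 3.22 and 3.71.

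Between N18 and the plates labelled AtT20, 31 members were higher in N18 and 21 were lower after quantile normalization (47.0% against 27.8% of all features, and 31.8% against 48.6%), and relative to the seminal proteins 52 and 5 (60.7% and 16.3% of all features). On unnormalized values the counts were 23 and 26 (19.9% and 63.1% of all features). Under the quantile and the seminal protein scaling alike, 31 were higher (47.0%, against 27.8%) and 5 were lower (7.58%, against 16.0%). This comparison shares its arrays with the former ones and adds no independent evidence to them. The furthest higher in N18 after quantile normalization were Hspb8 (3.92, at least 9.8-fold, adjusted p = 8.42e-11), Hsph1 (2.90, at least 3.4-fold, adjusted p = 1.77e-10) and Hspe1 (2.44, at least 2.9-fold, adjusted p = 1.18e-10). After Hspa1b, the furthest lower on the same scale were Dnajc11 (-2.02, at least 1.5-fold, adjusted p = 9.1e-11) and Dnajc14 (-1.97, at least 1.2-fold, adjusted p = 2.67e-07), and the last call was lost with the median of the probes (-0.22).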

How the data were processed

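The authors extracted total RNA from 12 plates, labelled the cDNA with Cy3, hybridised it to NimbleGen mouse arrays and deposited log2 intensities for 72000 probes per array. No background correction or normalization between arrays is stated in the sources used here. Precision is limited by dim signals and by having 4 arrays a line. The plates are described as biological replicates, and p-values measure the spread between plates of 1 culture.

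Of 25631 targets, 69.4% were matched to a symbol through RefSeq (GRCm38.p6) transcripts. Probes were averaged on the linear scale into targets, and targets of a gene in log2. Thresholds followed the study's methods, with levels relative to the seminal proteins. Lines were compared after quantile normalization with limma 3.58.1 in R 4.3.3 (lmFit, eBayes with trend, all 12 arrays), with Benjamini-Hochberg adjustment over 25128 features. Bounds ("at least") set the dimmer line at its threshold and are taken from means, without the spread between plates. Alternatives tried were a replicate block, a fit of the 8 arrays of a pair, unnormalized values, seminal protein scaling, mean of log2 or median of probes, normexp (offset 50), dim genes left out, the brightest target, differences of 1 or more and leaving out each plate. For the threshold they were olfactory receptor controls, 3 SD, median or log2 mean of probes, all 4 plates and quantile normalization.

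Named were all heat shock members, the 10 J-proteins with the largest called difference in each direction (N18 against BV2), the 3 members with the largest in each direction for AtT20 (called under both scalings), 5 partners in each direction, and markers. Other genes were named after their values were seen. Members and lists were chosen with earlier results of these data known. The fit was tested on simulated data in which 200 of 25128 features differed between N18 and BV2. It recovered 32.0% of differences of 0.5 (7.2% of its calls were false) and 92.5% of differences of 1.0 (4.6% false). In the data far more features were called between these lines (4775 higher and 5495 lower in N18), and the simulation had no normalization step. Its shares therefore need not hold for the data, and the choice of scaling was not tested by it. A small difference that was not called is not shown to be absent. Python 3.11.15 with pandas 2.3.3, numpy 2.4.6 and matplotlib 3.10.9 made the tables and figures.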

Additional observations from a re-analysis of the deposited data

Results flagged for a closer look

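In 132 sets of 4 plates (44 named members in 3 lines), 1 plate lay further from the other 3 in 5 sets than the 95% limit of Dixon's test allows, and chance gives about 1 set in 20. The level of Hsp90aa1 on plate 3 labelled AtT20 was 3.79, with the other plates at 4.53 to 4.57. The scanner limit lay at a level of 4.53 on that plate and at 5.21 to 5.23 on the others of its line, where 1 probe of Hsp90aa1 was at the limit on plates 1 and 4, and the part of this limit in the difference was not tested. Hspb1 was at 0.80 on BV2 plate 2, with the others at 1.19 to 1.23, and Hspb6 was at 2.09 on BV2 plate 1, with the others at 1.80 to 1.83. On N18 plate 2, Dnajc6 was at 2.47, with the others at 2.05 to 2.11, and Dnajc4 at 1.64, with the others at 1.41 to 1.44. Without N18 plate 2 neither Dnajc6 nor Dnajc4 lost its call against BV2.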

How the results depend on the processing

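Of 41 named genes called between N18 and BV2, 22 kept sign and call under every alternative run other than that of requiring a difference of at least 1, Hspb8, Hspa2, Hspa4l, Hsph1, Hspa8, Dnajb1 and Dnajc10 among them. That requirement, under which for example Hspa8 (0.79) is no longer called, left 10 of the 33 called members (9 higher, 1 lower) for N18 against BV2, 25 of 48 (13 higher, 12 lower) for AtT20 against BV2 and 32 of 52 (20 higher, 12 lower) for N18 against AtT20. The members lower in N18 than in BV2 went from 9 to 1 without normalization and to 1 relative to the seminal proteins, and to 15 with only the 8 arrays of the pair. Those higher on the plates labelled AtT20 than in BV2 went from 23 to 42 without normalization and to 7 relative to the seminal proteins, and those lower from 25 to 12 and to 40. For N18 against AtT20, 52 were higher and 5 lower relative to the seminal proteins (31 and 21 after quantile normalization), and 13 were lower with the median of the probes. With that median, 20 members rather than 34 were above the threshold on the plates labelled AtT20, and with olfactory receptor genes as controls 30 rather than 47 were in BV2. The shares of all features are given above only for the quantile, seminal protein and unnormalized scalings. For the other settings of this section they are not given, and whether members moved differently from all features was not tested. Among members and partners called after quantile normalization, some signs of the N18 minus BV2 difference turned. Without normalization these were Hspd1 (0.10), Dnajc3 (0.15), Bag1 (0.15), Bag5 (0.11) and Chordc1 (0.30). Relative to the seminal proteins they were Hspd1 (0.13), Dnajc2 (0.02), Dnajc3 (0.18), Bag1 (0.18), Bag5 (0.14) and Chordc1 (0.33). Of the members called only relative to the seminal proteins, Hspa9 (0.42), Dnajc17 (0.42) and Dnajc30 (0.54) turned as well. Signs also turned for members not called under any scaling. Examples are Hspa5 (0.32 unnormalized and 0.35 relative to the seminal proteins), Hspb1 (0.41 and 0.44) and Hspb6 (0.26 and 0.29). The median over all features moves with the scaling, as given in the report, and other causes were not tested.

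Leaving out a plate moved no count of members by over 1.5 times, and the members called between N18 and BV2 were then 28 to 31. Equal plate numbers did not pair the plates (correlations of deviations between -0.105 and 0.319). With a replicate block, 32 members were called between N18 and BV2 (23 higher, 9 lower), 48 between AtT20 and BV2 and 53 between N18 and AtT20. Of the named genes only Chordc1 lost its call under it. The 4 arrays per line limit the precision, and probes of Hsp90ab1, Hspa5 and Hspa8 were at the scanner limit on N18 arrays and a probe of Hsp90aa1 on 2 arrays labelled AtT20, which limits what their differences can show.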
